A study of Mus musculus with 15 samples.

Results

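The endoplasmic reticulum (ER) genes of thymic dendritic cells were examined: 50 genes of the secretory pathway and of the unfolded protein response (UPR), among 22165 genes in the count table. They were taken from a list by symbol, and they comprised 6 UPR sensors and transcription factors, 15 chaperones and folding factors, 8 genes of ER-associated degradation, 4 genes of the signal recognition particle and its receptor, 9 genes of the translocon and its associated TRAP complex, 4 signal peptidase genes and 4 oligosaccharyltransferase genes. All 50 symbols were found, and 49 passed a filter on low counts among 11746 tested genes. Srp54a, which encodes the signal sequence binding subunit of the signal recognition particle, had 1 count over all libraries and was not tested. It has near-identical copies, Srp54b and Srp54c, that could take its reads.

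The study sorted plasmacytoid dendritic cells (pDC) and conventional subsets (cDC2 and cDC1) from mouse thymus and sequenced the 3′ ends of their mRNA. The KO mice were Itgax-cre Stk11 fl/fl. In them, Cre under the CD11c (Itgax) promoter deletes Stk11, which encodes the kinase LKB1, an activator of AMPK and related kinases. There were 3 pDC KO, 3 pDC WT, 3 cDC2 KO, 2 cDC2 WT, 2 cDC1 KO and 2 cDC1 WT libraries. KO and WT mice alike were male and female mice on a C57BL/6 background. At 8 to 12 weeks of age, all were given B16 melanoma cells under the skin that secrete Flt3L, a dendritic cell growth factor, and thymi were taken after 9 to 12 days. Cells were enriched on CD11c beads, and pDC were sorted as Siglec-H+ CD11cint, cDC2 as CD11b+ CD11c+ MHCII+ and cDC1 as CD8a+ CD11c+ MHCII+ cells. The labels do not say whether the libraries of a group came from separate mice. The p-values rest on the spread between libraries within groups, pooled over groups, and that spread may be technical in part.

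Proteins bound for the cell surface or for secretion enter the ER through the Sec61 channel, after the signal recognition particle has brought the ribosome to the membrane. Signal peptidase removes the signal sequence, oligosaccharyltransferase adds glycans, and chaperones such as BiP (Hspa5), GRP94 (Hsp90b1) and calreticulin (Calr) fold the chain. When unfolded protein builds up, the sensors IRE1 (Ern1), PERK (Eif2ak3) and ATF6 (Atf6) raise this machinery, in part through the transcription factor XBP1, whose mRNA is spliced by IRE1. Plasmacytoid dendritic cells are known for abundant rough ER, like that of plasma cells, and for secreting large amounts of type I interferon.

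Libraries held 3928164 (cDC2 WT 1) to 12142712 (cDC2 KO 2) counts. Levels below are CPM, which are counts scaled to 1000000 per library after adjustment of library sizes, and differences are log2 with a standard error. That error was derived from the test, as the absolute difference divided by the square root of the F statistic. Stk11 itself had 33.2 to 43.5 CPM in pDC KO and 40.6 to 66.8 CPM in pDC WT libraries, 28.2 to 36.1 CPM in cDC2 KO and 34.2 to 34.9 CPM in cDC2 WT libraries, and 18.4 to 30.6 CPM in cDC1 KO and 35.6 to 54.2 CPM in cDC1 WT libraries. Tags from the 3′ end can lie outside the deleted part of a gene, so these levels do not check the deletion. The summed level of 10 pDC markers was 36460.0 to 41027 CPM in pDC KO and 32658 to 52903 CPM in pDC WT libraries, against 1210.8 to 1395 CPM in conventional KO and 1049.6 to 1861.6 CPM in conventional WT libraries, with Ptprcap at 0 in all of them. Of 9 tested pDC markers, 8 were called higher in pDC in each genotype. Of 10 cDC1 markers, 3 were called higher and 6 lower in pDC than in the conventional subsets in KO, and 2 higher and 6 lower in WT. Irf8, which pDC are known to express, averaged 7019 CPM in pDC KO and 7229 CPM in pDC WT libraries, against 3292 CPM in cDC1 KO and 5214 CPM in cDC1 WT libraries. The cDC1 marker sum of pDC overlapped that of cDC1 in KO and was lower in WT, at 6995 to 9575 CPM in pDC KO and 7078.5 to 8548 CPM in pDC WT, against 6949.5 to 8161 CPM in cDC1 KO and 10310.0 to 10945 CPM in cDC1 WT libraries. The sum of 10 cDC2 markers overlapped between pDC and cDC2 in both genotypes, at 2015 to 3121.5 CPM in pDC KO and 2178 to 4636 CPM in pDC WT, against 2653 to 3162 CPM in cDC2 KO and 3116 to 3352 CPM in cDC2 WT libraries, and 2 of these markers were called higher and 3 lower in pDC than in the conventional subsets in each genotype. Between the conventional subsets of WT mice, 6 of 10 cDC2 markers were higher and 5 of 10 cDC1 markers lower in cDC2 than in cDC1. Some markers of other cells were also higher in pDC. The sum of 12 thymocyte and T cell markers was 378 to 418 CPM in pDC KO and 418 to 524 CPM in pDC WT libraries, against 46.2 to 162 CPM in conventional KO and 72.8 to 215 CPM in conventional WT libraries. Cd8b1 (mean 203 CPM in pDC KO and 236 CPM in pDC WT) and Dntt (85.7 CPM in pDC KO and 87.8 CPM in pDC WT) made up most of it. Of the 12 markers, 5 were called higher and 0 lower in pDC in KO, and 3 higher and 0 lower in WT. Against cDC1 alone in WT, 2 were called higher and 0 lower, and 9 of the 12 differences were negative. The sum of 12 macrophage and monocyte markers was 478 to 769 CPM in pDC KO and 371 to 620.2 CPM in pDC WT libraries, against 129 to 220.2 CPM in conventional KO and 168 to 206 CPM in conventional WT libraries. Most of it was Ly6c2 (mean 649.5 CPM in pDC KO and 521 CPM in pDC WT). Of the 11 tested markers of this list, 1 was called higher and 5 lower in pDC in KO, and 1 higher and 2 lower in WT. Lyz2 averaged 5.25 CPM in pDC KO and 5.55 CPM in pDC WT, against 63.4 to 140.4 CPM in the conventional groups, and Adgre1 and Marco were at 0 in pDC KO and Marco and S100a9 in pDC WT. The sum of 11 thymic epithelium and stroma markers was 198 to 233 CPM in pDC KO and 167 to 227 CPM in pDC WT libraries, against 33.4 to 189 CPM in conventional KO and 32.2 to 293 CPM in conventional WT libraries. Of the 3 tested markers of this list, 2 were called higher and 0 lower in pDC in KO, and 2 higher and 1 lower in WT. Pecam1 averaged 113 CPM in pDC KO and 108 CPM in pDC WT, against 13.2 to 39.3 CPM in the conventional groups. Cdh5 averaged 64.8 CPM in pDC KO and 68 CPM in pDC WT, against 0 to 0.780 CPM. Epcam was highest in cDC2, at 129 CPM in KO and 168.8 CPM in WT. B and plasma cells, which are rich in ER, gave sums over 8 markers of 24.1 to 27.6 CPM in pDC KO and 20.8 to 37.7 CPM in pDC WT libraries, against 16.6 to 32.4 CPM in conventional KO and 15.7 to 43.5 CPM in conventional WT libraries, with Cd79a and Tnfrsf17 at 0 in every pDC library. Of the 5 tested markers of this list, 2 were called higher and 1 lower in pDC in KO, and 1 higher and 1 lower in WT. Cd79b averaged 14.5 CPM in pDC KO and 15.6 CPM in pDC WT, against 1.79 to 6.85 CPM in the conventional groups, and the plasma cell marker Sdc1 3.58 CPM in pDC KO and 2.40 CPM in pDC WT, against 0 to 0.364 CPM. Ms4a1 ran the other way, at 0.463 CPM in pDC KO and 0 in pDC WT, against 4.67 to 8.10 CPM. Prdm1 averaged 3.94 CPM in pDC KO and 8.25 CPM in pDC WT, against 5.73 to 26.5 CPM. The part of these cells in the results below was not tested. In these bulk samples, fewer cells of a type and less RNA per cell cannot be told apart.

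The first comparison set pDC against the mean of the conventional subsets, separately in KO and in WT mice, which share no library. In KO, 15 of 49 tested members were higher in pDC and 2 were lower at an adjusted p under 0.05, where 13.3% of all tested genes were higher and 16.5% lower. In WT, 14 members (28.6%) were higher in pDC and 1 (2.04%) was lower, where 14.8% of all tested genes were higher and 14.5% lower. The median member difference was 0.36 in KO and 0.47 in WT, beside medians over all tested genes of -0.09 in KO and 0.03 in WT. The members called higher in both genotypes were Xbp1, Ern1, Eif2ak3, Dnajb9, Edem2, Sec61a1, Sec61b, Spcs2 and Spcs3, which made 60% of the KO calls and 64.3% of the WT calls. Over all tested genes, these shares were 76.2% of the KO calls and 68.2% of the WT calls. Sdf2l1 was lower in both. With offsets for transcript length and GC content in each library, 22 members were higher in KO and 0 lower, against a split of 2138 higher and 1475 lower over all genes (1557 and 1937 without the offsets). The same offsets gave 18 members higher and 1 lower in WT. Without the filter on low counts, 12 were higher and 4 lower in KO, where Srp14, Spcs1 and Ostc were not called, and Eif2ak3 was not called in WT. In a fit of the WT groups alone, Eif2ak3, Dnajb9, Sec61b and Spcs3 were not called. Leaving out 1 library at a time, 10 of the KO calls stayed without pDC KO 2 or cDC1 KO 1 and 11 without cDC1 KO 2, and 11 of the WT calls stayed without pDC WT 2.

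**Figure D1:**
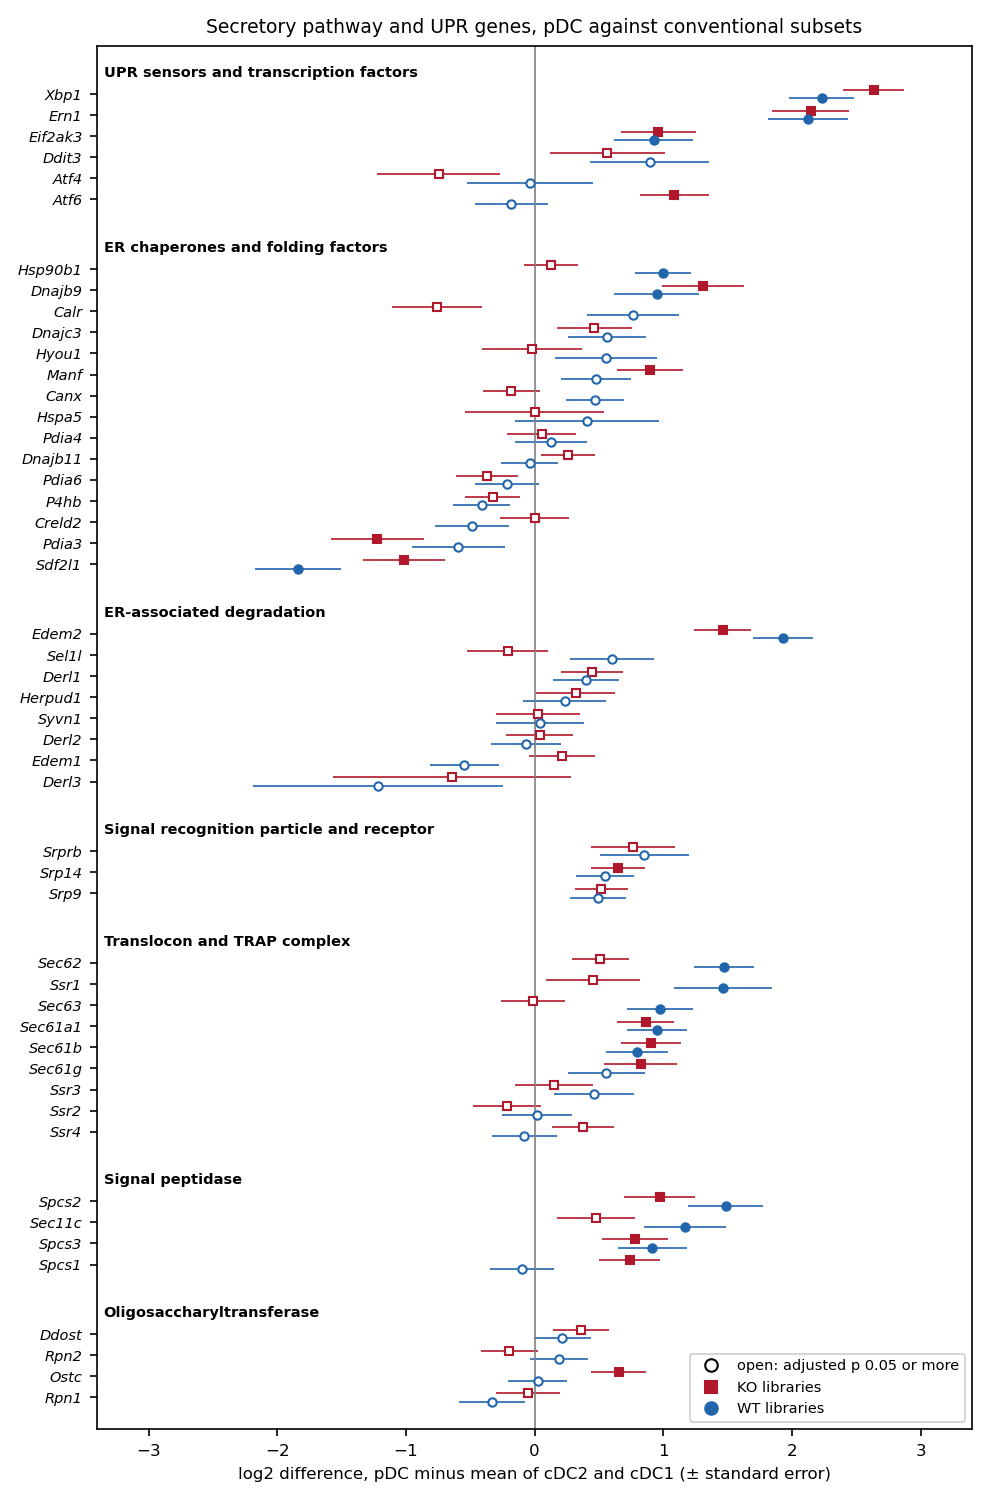
The log2 difference of pDC minus the mean of cDC2 and cDC1 is plotted on the x axis for the 49 tested members, grouped by role, with red squares for KO, blue circles for WT and bars for the standard error; filled symbols have an adjusted p under 0.05. Xbp1 (2.64 in KO, 2.23 in WT), Ern1 (2.15 in KO, 2.12 in WT) and Edem2 (1.46 in KO, 1.93 in WT) lie farthest to the right in both genotypes, and Sdf2l1 (-1.01 in KO, -1.84 in WT) lies on the left.

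Among the sensors and transcription factors, 4 of 6 (66.7%) were called higher in pDC in KO and 3 of 6 (50%) in WT. Over all tested genes, 13.3% were higher in KO and 14.8% in WT. Xbp1 encodes the transcription factor that IRE1 activates by splicing. It had 415, 286 and 527 CPM in pDC KO libraries, against 62.8, 65.0 and 56.3 CPM in cDC2 KO and 77.3 and 64.2 CPM in cDC1 KO libraries. In WT mice, Xbp1 had 265, 259 and 425 CPM in pDC WT libraries, against 67.7 and 70.5 CPM in cDC2 WT and 66.8 and 64.3 CPM in cDC1 WT libraries. All 6 pDC libraries were above all 9 conventional ones, and the conventional libraries lay close to each other. Xbp1 was 6.21-fold higher in pDC in KO (log2 2.64 ± 0.24, adjusted p 1.51e-07) and 4.70-fold higher in WT (log2 2.23 ± 0.25, adjusted p 2.5e-06). The counts are of 3′ tags, so they do not separate spliced from unspliced Xbp1 mRNA.

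The sensor that cuts Xbp1 mRNA, IRE1 (Ern1), followed the same order. Ern1 had 69.3, 45.5 and 75.3 CPM in pDC KO libraries, against 13.8, 8.86 and 14.4 CPM in cDC2 KO and 14.8 and 18.5 CPM in cDC1 KO libraries. In WT mice the levels were 87.4, 52.5 and 129 CPM in pDC WT libraries, against 25.0 and 21.8 CPM in cDC2 WT and 20.4 and 15.7 CPM in cDC1 WT libraries. Again no conventional library reached the lowest pDC library. Ern1 differed by 2.15 ± 0.30 in KO (adjusted p 2.46e-05) and by 2.12 ± 0.31 in WT (adjusted p 5.14e-05).

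PERK (Eif2ak3), the kinase that slows translation under ER stress, was a smaller case. It had 21.7, 24.4 and 46.4 CPM in pDC KO libraries, against 16.8, 14.3 and 17.1 CPM in cDC2 KO and 13.1 and 18.1 CPM in cDC1 KO libraries. In WT mice Eif2ak3 had 30.5, 26.96 and 31.7 CPM in pDC WT libraries, against 11.9 and 13.1 CPM in cDC2 WT and 15.5 and 23.5 CPM in cDC1 WT libraries. Within each genotype the pDC libraries were above the conventional ones, by 0.96 ± 0.29 in KO (adjusted p 0.0181) and 0.93 ± 0.31 in WT (adjusted p 0.0293). The KO call was lost without pDC KO 3, at 0.55 (adjusted p 0.182), and without cDC1 KO 1, at 0.85 (adjusted p 0.0908). The WT call was lost without cDC1 WT 1, at 0.79 (adjusted p 0.123), and likewise without cDC2 WT 1, pDC WT 1 or pDC WT 3, at 0.88 to 0.91.

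Atf6, the sensor that is cut in the Golgi to release a transcription factor, was called in KO only. It had 202, 283 and 177 CPM in pDC KO libraries, against 72.0, 148 and 117 CPM in cDC2 KO and 98.1 and 93.5 CPM in cDC1 KO libraries. In WT mice it had 155, 143 and 137 CPM in pDC WT libraries, against 158 and 251 CPM in cDC2 WT and 94.3 and 169 CPM in cDC1 WT libraries. The KO groups did not overlap, while in WT the pDC libraries lay inside the conventional range. The differences were 1.09 ± 0.27 in KO (adjusted p 0.00518) and -0.18 ± 0.29 in WT (adjusted p 0.689), and the test of their difference is given with the genotype effects.

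The 2 transcription factors downstream of PERK did not pass. Atf4, the activator of amino acid supply genes, had 595, 289 and 368 CPM in pDC KO and 304, 504 and 759 CPM in pDC WT libraries. The conventional levels were 933, 686 and 787 CPM in cDC2 KO, 159.8 and 1171 CPM in cDC2 WT, 506 and 716 CPM in cDC1 KO and 548 and 312 CPM in cDC1 WT libraries. The groups overlapped and the cDC2 WT libraries lay 7.33-fold apart. Without cDC2 WT 2, the WT difference of -0.03 became 1.00 (adjusted p 0.0529). Ddit3, which encodes the stress factor CHOP, had a difference of 0.57 ± 0.44 in KO (adjusted p 0.365) and 0.90 ± 0.46 in WT (adjusted p 0.159), with overlapping groups. In WT it was called without the filter on low counts, at 0.87 (adjusted p 0.0259), and its value without 1 library ran from 0.47 without pDC WT 3 to 1.35 without cDC2 WT 2.

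**Figure D2:**
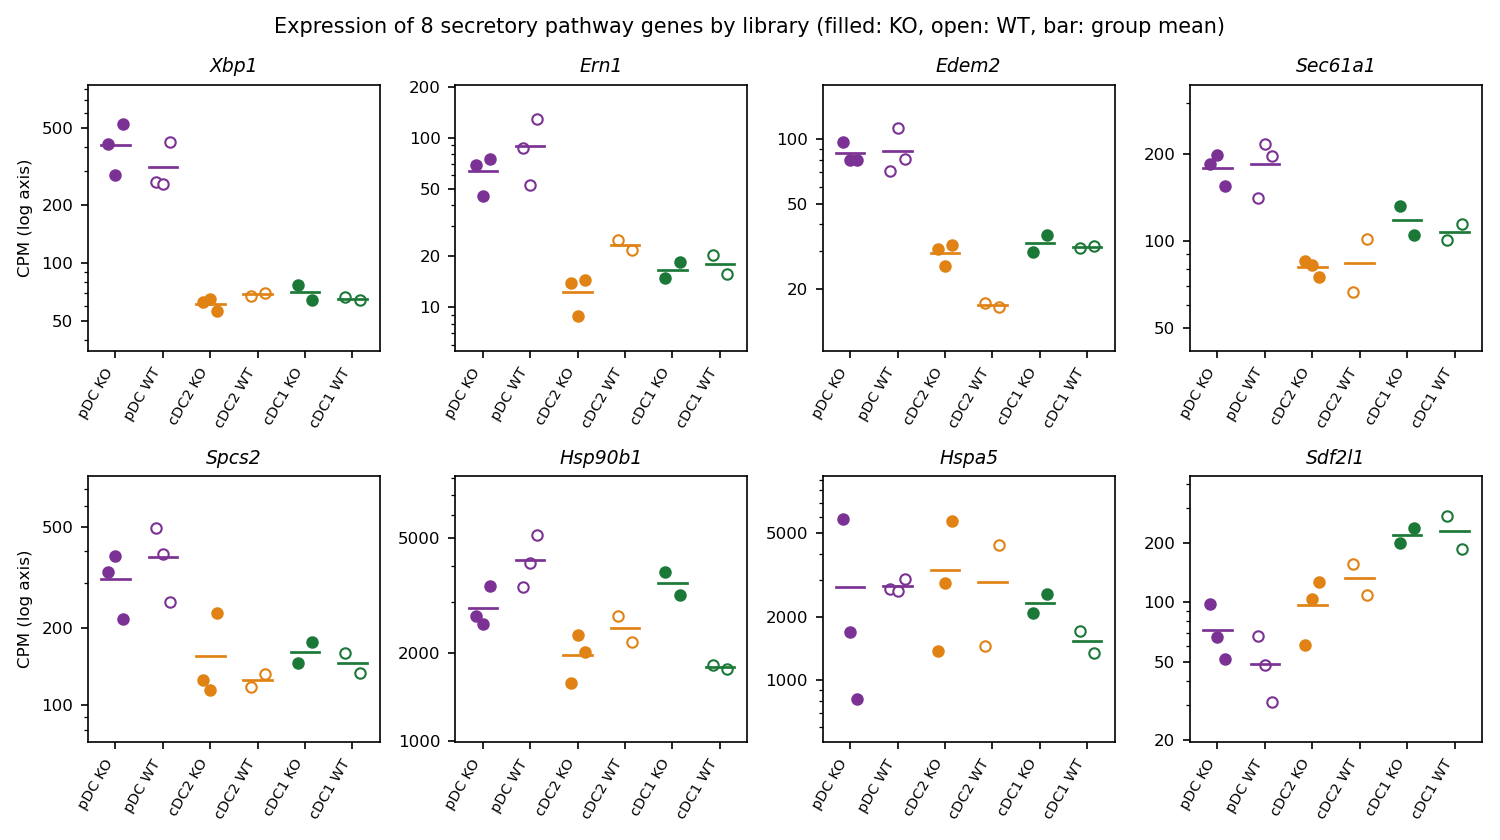
Each point is 1 library, filled for KO and open for WT, with the level in CPM on a log y axis and bars at the group means; the subsets are pDC (purple), cDC2 (orange) and cDC1 (green). Xbp1, Ern1, Edem2 and Sec61a1 were higher in all 6 pDC libraries than in all 9 conventional libraries, Sdf2l1 was lowest in pDC WT, and the Hspa5 libraries of the pDC KO group spanned 812 to 5854 CPM.

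The chaperones were called in both directions, at shares near or below those of all tested genes. In KO 2 of 15 (13.3%) were called higher in pDC (Dnajb9 and Manf) and 2 (13.3%) lower (Sdf2l1 and Pdia3), with a median of 0.00. Over all tested genes in KO, 13.3% were higher and 16.5% lower. In WT 2 (13.3%) were called higher (Hsp90b1 and Dnajb9) and 1 (6.67%) lower (Sdf2l1), with a median of 0.41. The WT shares over all tested genes were 14.8% higher and 14.5% lower. Many of these genes share a promoter element, the ER stress response element (ERSE), to which ATF6 and XBP1 are known to bind. RefSeq promoter windows on GRCm38.p6, which run from 250 bases before to 50 bases after a gene's start, were found for 41 of the 50 members. The ERSE was searched on both strands as CCAAT, any 9 bases and CCACG, and 9 of the 41 members (22%) held it, as did 37 of all 27025 genes with a window (0.137%) and 0.119% of the 32851 windows. The members were listed as genes of this pathway, so their larger share reflects that choice and is not a result of these data. The sites are shown because the element is the textbook link between these sensors and the chaperone genes. Each site is written 5′ to 3′ on the strand that carries CCAAT, and the capitals mark the fixed letters of the motif.
Hspa5, chr2:34772025-34772043, + strand: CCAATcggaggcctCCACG
Hsp90b1, chr10:86705638-86705656, - strand: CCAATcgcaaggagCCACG
Hsp90b1, chr10:86705533-86705551, + strand: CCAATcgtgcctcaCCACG
Calr, chr8:84847075-84847093, + strand: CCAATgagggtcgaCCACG
Canx, chr11:50325800-50325818, - strand: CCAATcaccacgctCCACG
Pdia6, chr12:17266491-17266509, + strand: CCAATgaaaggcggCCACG
Dnajc3, chr14:118937827-118937845, + strand: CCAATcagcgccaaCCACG
Creld2, chr15:88819520-88819538, - strand: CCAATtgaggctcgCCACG
Syvn1, chr19:6046532-6046550, + strand: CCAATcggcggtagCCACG
Derl3, chr10:75893242-75893260, - strand: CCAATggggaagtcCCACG
The related ERSE-II, searched on both strands as ATTGG, any 1 base and CCACG, was found in Herpud1 and Dnajb11, and in 0.0365% of windows. The UPR element core TGACGTGG, searched likewise, was in 0 of the 41 members and 0.676% of windows. No member held both the ERSE and the ERSE-II, and they share the letters CCACG.

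The Hspa5 window is shown in full up to the start, with its ERSE in capitals at positions -65 to -47, because Hspa5 is the standard readout of the response. Hsp90b1 is shown beside it since it was the only ERSE-bearing member called in pDC against the mean of the conventional subsets, and its capitals mark 2 elements, of which the second lies on the other strand and so appears as CGTGG and ATTGG in the line.
Hspa5, chr2:34771840-34772089, + strand: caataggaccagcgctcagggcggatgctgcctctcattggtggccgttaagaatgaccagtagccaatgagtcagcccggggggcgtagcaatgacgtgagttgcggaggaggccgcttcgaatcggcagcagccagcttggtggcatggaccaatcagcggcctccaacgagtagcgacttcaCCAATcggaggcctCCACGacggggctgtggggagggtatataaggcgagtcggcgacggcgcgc
Hsp90b1, chr10:86705445-86705694, - strand: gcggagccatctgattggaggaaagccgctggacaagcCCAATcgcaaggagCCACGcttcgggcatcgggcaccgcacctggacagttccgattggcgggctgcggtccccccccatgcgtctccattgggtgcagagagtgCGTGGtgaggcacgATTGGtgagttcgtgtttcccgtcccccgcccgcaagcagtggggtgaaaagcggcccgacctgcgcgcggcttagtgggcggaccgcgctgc
Against the mean of the conventional subsets, 0 of the 9 members with an ERSE were called in pDC in KO and 1 in WT, with median differences of 0.00 in KO and 0.41 in WT. Of the 31 tested members with a window and no ERSE, 10 were higher and 2 lower in KO (median 0.38), and 10 were higher and 1 lower in WT (median 0.49). Against cDC1 alone in WT, 3 of the 9 members with an ERSE were called higher in pDC (Hsp90b1, Calr and Canx; median 0.81), and of the 31 without, 8 were higher and 3 lower (median 0.13). Both Calr and Canx were not called there without cDC1 WT 1 or without cDC1 WT 2, nor was Calr without pDC WT 2 or pDC WT 3, or Canx without pDC WT 1 or pDC WT 2. Against cDC2 alone, 1 of the 9 was higher (median 0.11), and of the 31 without, 12 were higher and 1 lower (median 0.76). The difference between the sets was not tested.

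Hspa5, which encodes the major ER chaperone BiP, had 5854, 1704 and 812 CPM in pDC KO libraries, against 1385, 2895 and 5741 CPM in cDC2 KO and 2090.3 and 2571 CPM in cDC1 KO libraries. In WT mice, Hspa5 had 2726, 2668 and 3018 CPM in pDC WT libraries, against 1456 and 4387 CPM in cDC2 WT and 1722 and 1341 CPM in cDC1 WT libraries. The groups overlapped in both genotypes, and the 3 pDC WT libraries were close to each other while those of pDC KO and of cDC2 were wide apart. The differences were -0.00 ± 0.54 in KO (adjusted p 1.0) and 0.41 ± 0.56 in WT (adjusted p 0.634). The WT value was 0.12 (adjusted p 0.93) without cDC2 WT 1 and 0.91 (adjusted p 0.305) without cDC2 WT 2.

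Hsp90b1 encodes GRP94, the ER chaperone that folds Toll-like receptors and integrins. It had 2692, 2518 and 3399 CPM in pDC KO libraries, against 1585, 2308 and 2029 CPM in cDC2 KO and 3804 and 3169.8 CPM in cDC1 KO libraries. In WT mice it had 3379.9, 4086 and 5086 CPM in pDC WT libraries, against 2697 and 2197 CPM in cDC2 WT and 1821 and 1769.9 CPM in cDC1 WT libraries. In WT all pDC libraries were above the conventional ones, at 1.00 ± 0.22 (adjusted p 0.00194). In KO the cDC1 libraries were at the pDC level, and the difference was 0.13 ± 0.21 (adjusted p 0.69).

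Sdf2l1, an ER protein that works with BiP and its J-domain partners, ran the other way. It had 97.6, 66.9 and 51.8 CPM in pDC KO libraries, against 60.6, 103 and 127 CPM in cDC2 KO and 199 and 238 CPM in cDC1 KO libraries. In WT mice Sdf2l1 had 67.2, 48.2 and 31.2 CPM in pDC WT libraries, against 157 and 109 CPM in cDC2 WT and 274 and 187 CPM in cDC1 WT libraries. The WT groups did not overlap, and in KO the lowest cDC2 library was inside the pDC range. Sdf2l1 was 2.02-fold lower in pDC in KO (log2 -1.01 ± 0.32, adjusted p 0.0211) and 3.58-fold lower in WT (log2 -1.84 ± 0.34, adjusted p 0.000425). The KO call was lost with the length and GC offsets, at -0.68 (adjusted p 0.0814). It was also lost without pDC KO 2, at -0.96 (adjusted p 0.0783), without pDC KO 3, at -0.82 (adjusted p 0.0996), and without cDC1 KO 2, at -0.95 (adjusted p 0.0604).

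Dnajb9, which encodes the BiP partner ERdj4, had 99.3, 61.9 and 41.5 CPM in pDC KO libraries, against 21.7, 24.1 and 36.6 CPM in cDC2 KO and 28.6 and 25.5 CPM in cDC1 KO libraries. The WT levels were 42.3, 85.9 and 58.6 CPM in pDC WT libraries, against 42.5 and 23.2 CPM in cDC2 WT and 33.1 and 30.6 CPM in cDC1 WT libraries. Every pDC KO library exceeded the conventional KO libraries, and in WT 1 pDC library lay at the level of cDC2 WT 1. The differences were 1.31 ± 0.32 in KO (adjusted p 0.00418) and 0.95 ± 0.33 in WT (adjusted p 0.0386). The WT call stayed in 10 of 15 fits without 1 library and was lost without cDC2 WT 2, cDC1 WT 1, cDC1 WT 2, pDC WT 2 or pDC WT 3, and the 15 values ranged from 0.65 to 1.20. Manf, a secreted ER stress factor, was higher in pDC in KO (0.90 ± 0.26, adjusted p 0.0133), a call lost without pDC KO 1, at 0.62 (adjusted p 0.107), or cDC1 KO 1, at 0.87 (adjusted p 0.0511). Its WT difference was 0.48 ± 0.27 (adjusted p 0.198). Pdia3, the disulfide isomerase that works with calnexin and calreticulin, was lower in KO (-1.22 ± 0.36, adjusted p 0.0155) and was not called with the offsets, at -0.86 (adjusted p 0.067), nor without cDC1 KO 2, pDC KO 2 or pDC KO 3, at -1.10 to -0.997. In WT it gave -0.59 ± 0.36 (adjusted p 0.235).

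The lectin chaperone Calr had a difference of -0.76 ± 0.35 in KO and 0.76 ± 0.35 in WT, and its partner Canx had -0.18 ± 0.22 in KO and 0.47 ± 0.23 in WT. Neither was called in either genotype (adjusted p 0.115 to 0.584). The remaining disulfide isomerases Pdia4, Pdia6 and P4hb lay between -0.37 and 0.06 in KO and between -0.41 and 0.13 in WT. Dnajb11, Dnajc3, Hyou1 and Creld2, which help BiP or are induced with it, lay between -0.02 and 0.46 in KO and between -0.49 and 0.57 in WT. None of these 7 genes was called in either genotype.

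Of the 8 genes of ER-associated degradation, which return misfolded proteins to the cytosol, 1 (12.5%) was called higher in pDC in each genotype. That share was near those of all tested genes, at 13.3% in KO and 14.8% in WT. The called gene was Edem2, which starts the trimming of mannose that marks glycoproteins for degradation. Edem2 had 97.0, 80.0 and 79.9 CPM in pDC KO libraries, against 30.8, 25.7 and 32.1 CPM in cDC2 KO and 29.8 and 35.6 CPM in cDC1 KO libraries. In WT mice it had 71.2, 112 and 80.8 CPM in pDC WT libraries, against 17.2 and 16.6 CPM in cDC2 WT and 31.2 and 31.7 CPM in cDC1 WT libraries. All pDC libraries were above all conventional libraries, and cDC2 WT had the lowest levels. The differences were 1.46 ± 0.22 in KO (adjusted p 6.38e-05) and 1.93 ± 0.24 in WT (adjusted p 6.68e-06). The ubiquitin ligase pair did not pass: Sel1l differed by -0.21 ± 0.32 in KO and 0.60 ± 0.32 in WT (adjusted p 0.667 in KO and 0.177 in WT), and Syvn1 by 0.02 ± 0.33 in KO and 0.04 ± 0.34 in WT (adjusted p 0.965 in KO and 0.948 in WT). Edem1, the mannosidase-like relative of Edem2, gave 0.21 ± 0.25 in KO and -0.55 ± 0.27 in WT (adjusted p 0.571 in KO and 0.138 in WT). Derl3, a retrotranslocation factor, had at most 5.83 CPM in any library. The remaining members Herpud1, Derl1 and Derl2 lay between 0.04 and 0.45 in KO and between -0.07 and 0.40 in WT, without a call. Derl2 shares 231 exon bases with its antisense neighbour Mis12, and although the libraries were strand-specific, the strand setting of the counting was not given, so reads of the pair may be mixed.

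Of the 9 translocon and TRAP genes, which carry chains into the ER, 3 (33.3%) were called higher in pDC in KO (Sec61a1, Sec61b and Sec61g). In WT 5 (55.6%) were higher (Sec61a1, Sec61b, Sec62, Sec63 and Ssr1), and 0 were lower in either genotype. Over all tested genes, 13.3% were higher in KO and 14.8% in WT. Sec61a1 encodes the channel itself. It had 184, 197 and 154 CPM in pDC KO libraries, against 85.0, 82.7 and 75.2 CPM in cDC2 KO and 132 and 105 CPM in cDC1 KO libraries. Sec61a1 had 141, 216 and 196 CPM in pDC WT libraries, against 66.8 and 101 CPM in cDC2 WT and 101 and 115 CPM in cDC1 WT libraries. All 6 pDC libraries exceeded all 9 conventional libraries, by 0.86 ± 0.22 in KO (adjusted p 0.00637) and 0.95 ± 0.23 in WT (adjusted p 0.00465). Sec61b, a small channel subunit, differed by 0.91 ± 0.23 in KO (adjusted p 0.00623) and 0.79 ± 0.24 in WT (adjusted p 0.0195). The WT call was lost without pDC WT 2, at 0.50 (adjusted p 0.143), and without cDC1 WT 2, at 0.66 (adjusted p 0.0851). Sec61g, the other small subunit, differed by 0.83 ± 0.28 in KO (adjusted p 0.035) and 0.56 ± 0.30 in WT (adjusted p 0.172). Its KO call stayed in 9 of 15 fits without 1 library, and it was lost without any 1 of pDC KO 1, pDC KO 2, cDC2 KO 1, cDC2 KO 2, cDC1 KO 1 and cDC1 KO 2, at 0.60 to 0.85.

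Sec62 and Sec63 form the complex that helps some chains through the channel after or during translation. Sec62 had 661, 843 and 875 CPM in pDC KO libraries, against 705, 609 and 578 CPM in cDC2 KO and 512 and 471 CPM in cDC1 KO libraries. In WT mice Sec62 had 959, 960.2 and 1597 CPM in pDC WT libraries, against 397 and 574 CPM in cDC2 WT and 344 and 389.7 CPM in cDC1 WT libraries. The WT groups did not overlap, with pDC WT 3 the highest, and the KO groups overlapped through cDC2 KO 1. The differences were 0.51 ± 0.22 in KO (adjusted p 0.0937) and 1.47 ± 0.23 in WT (adjusted p 0.000112). Sec63 differed by -0.01 ± 0.25 in KO (adjusted p 0.975) and 0.97 ± 0.26 in WT (adjusted p 0.00832), with pDC WT 2 below cDC2 WT 2. Without pDC WT 1 the WT value was 0.77 (adjusted p 0.054).

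Ssr1 encodes the alpha subunit of TRAP, which sits beside the channel. It had 417, 495 and 328 CPM in pDC KO libraries, against 168, 356 and 311 CPM in cDC2 KO and 222 and 432 CPM in cDC1 KO libraries. In WT mice it had 296, 1119.8 and 425 CPM in pDC WT libraries, against 189 and 244 CPM in cDC2 WT and 256 and 202 CPM in cDC1 WT libraries. Library pDC WT 2 stood above all others. The WT difference was 1.46 ± 0.38 (adjusted p 0.0074) with that library and 0.70 (adjusted p 0.132) without it, and the KO difference was 0.45 ± 0.36 (adjusted p 0.375). The other TRAP subunits Ssr2, Ssr3 and Ssr4 lay between -0.21 and 0.38 in KO and between -0.08 and 0.46 in WT, without a call. The signal recognition particle and its receptor gave 1 call of 3 (33.3%) in KO and 0 of 3 in WT, all with positive differences. Over all tested genes, 13.3% were called higher in KO and 14.8% in WT. Srp9 and Srp14 bind each other in the part that pauses translation. Srp9 was higher in all 6 pDC libraries (98.2 to 126 CPM) than in all 9 conventional libraries (48.3 to 97.3 CPM), but did not pass at 0.52 ± 0.21 in KO and 0.49 ± 0.22 in WT (adjusted p 0.0671 in KO and 0.0982 in WT). Srp14 differed by 0.65 ± 0.21 in KO (adjusted p 0.0276) and 0.55 ± 0.22 in WT (adjusted p 0.0724), and its KO call was lost without pDC KO 1, pDC KO 2, cDC1 KO 1 or cDC1 KO 2, at 0.54 to 0.67. Srprb, a receptor subunit, differed by 0.77 ± 0.32 in KO and 0.85 ± 0.35 in WT (adjusted p 0.0849 in KO and 0.072 in WT). It shares 888 exon bases on the same strand with Gm20425, which had 0 counts.

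Signal peptidase, which cuts the signal sequence from the growing chain, had 3 of 4 genes (75%) called higher in pDC in each genotype. Over all tested genes, 13.3% were higher in KO and 14.8% in WT. Spcs2, a noncatalytic subunit, had 333, 385 and 217 CPM in pDC KO libraries, against 125, 114 and 229 CPM in cDC2 KO and 147 and 176 CPM in cDC1 KO libraries. In WT mice Spcs2 had 493, 389 and 253 CPM in pDC WT libraries, against 118 and 132 CPM in cDC2 WT and 159 and 133 CPM in cDC1 WT libraries. The WT groups did not overlap, while cDC2 KO 3 reached the pDC range. The differences were 0.97 ± 0.28 in KO (adjusted p 0.0123) and 1.49 ± 0.29 in WT (adjusted p 0.000778), and the KO call was lost without pDC KO 2, at 0.79 (adjusted p 0.0779), or cDC1 KO 1, at 0.90 (adjusted p 0.0552).

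Spcs3 differed by 0.78 ± 0.26 in KO (adjusted p 0.0272) and 0.91 ± 0.27 in WT (adjusted p 0.0156). Its KO call was lost without pDC KO 2, pDC KO 3 or cDC1 KO 2, at 0.54 to 0.82, and its WT call without pDC WT 2, cDC2 WT 2 or cDC1 WT 2, at 0.75 to 0.79. Sec11c, a catalytic subunit, had 363, 329 and 351 CPM in pDC KO libraries, against 148, 181 and 179 CPM in cDC2 KO and 574 and 165 CPM in cDC1 KO libraries. In WT mice Sec11c had 580.4, 451 and 760.4 CPM in pDC WT libraries, against 226 and 321 CPM in cDC2 WT and 296 and 219 CPM in cDC1 WT libraries. The WT groups did not overlap, and cDC1 KO 1 was above all pDC KO libraries. The differences were 0.48 ± 0.30 in KO (adjusted p 0.259) and 1.17 ± 0.32 in WT (adjusted p 0.00975). Spcs1, which is the smallest subunit, differed by 0.74 ± 0.24 in KO (adjusted p 0.0237) and -0.10 ± 0.25 in WT (adjusted p 0.809). The KO call of Spcs1 was lost without pDC KO 1, pDC KO 3, cDC1 KO 1 or cDC1 KO 2, at 0.66 to 0.76. Spcs1 shares 252 exon bases with Glt8d1 on the opposite strand.

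Of the 4 oligosaccharyltransferase genes, 1 (25%) was called higher in pDC in KO and 0 in WT, beside 13.3% and 14.8% of all tested genes. It was Ostc, at 0.65 ± 0.22 in KO (adjusted p 0.0288) and 0.02 ± 0.23 in WT (adjusted p 0.96). The Ostc call was lost without pDC KO 1, pDC KO 2, cDC2 KO 2 or cDC1 KO 1, at 0.55 to 0.63. Ddost, Rpn1 and Rpn2, further subunits of the complex, lay between -0.20 and 0.36 in KO and between -0.33 and 0.22 in WT. In both genotypes together, 5 members (Xbp1, Ern1, Edem2, Srp9 and Sec61a1) were higher in all 6 pDC libraries than in all 9 conventional libraries, a separation shown by 7.72% of all tested genes. Among these 49 members, the sign of the difference was the same in KO and WT for 34 (69.4%), beside 77.9% of all tested genes.

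Set against each conventional subset of WT mice, comparisons which share the pDC WT libraries, the members lay farther above cDC2 than above cDC1. Against cDC2, 19 members were higher in pDC and 1 lower, with 11.4% of all tested genes higher and 12.2% lower. Against cDC1, 12 were higher and 4 lower, with 12.8% and 14.8% of all tested genes. The member medians were 0.73 against cDC2 and 0.14 against cDC1, beside 0.07 and -0.05 over all tested genes. Against cDC2, the calls took in 6 of 9 translocon and TRAP genes, 3 of 4 signal peptidase genes and all 3 tested signal recognition particle genes. Without other groups in the fit, 4 members were called higher and 1 lower against cDC2. Of the 20 calls, 8 stayed without cDC2 WT 1 and 10 without cDC2 WT 2. The 4 genes called lower in pDC than in cDC1 were Sdf2l1 (-2.24), P4hb (-0.87), Ssr2 (-1.002) and Ssr4 (-0.89). With the offsets this split was 12 higher and 1 lower, and 7 of the 16 calls stayed without cDC1 WT 1 or without cDC1 WT 2.

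The direct comparison of cDC2 with cDC1 in WT gave 0 members higher and 6 lower, where 3.75% of all tested genes were higher and 4.98% lower. They were Ssr2, Ssr4, Sec61g, Syvn1, Derl1 and Srp14. Ssr2, a TRAP subunit, had 17.0 and 15.4 CPM in cDC2 WT, against 75.0 and 57.7 CPM in cDC1 WT libraries. The difference was -2.04 ± 0.38 (adjusted p 0.00424), and Ssr4 differed by -1.62 ± 0.34 (adjusted p 0.00841). In KO mice the Ssr2 levels were 38.1, 39.1 and 34.4 CPM in cDC2, against 58.0 and 62.0 CPM in cDC1 libraries. These groups did not overlap either, but cDC2 was not tested against cDC1 in KO. Groups this small often lie apart: in WT, 30.5% of all tested genes were lower in cDC2 than in cDC1 without overlap. With only these 2 groups in the fit 0 members were called, with the offsets 1 was higher and 3 lower, and of the 6 calls 2 stayed without cDC2 WT 1 or cDC1 WT 1 and 3 without cDC2 WT 2 or cDC1 WT 2.

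Other genes of the same pathways, listed by function, were counted beside the members in the comparison of pDC with the conventional subsets. Over all tested genes, 13.3% were higher and 16.5% lower in KO, and 14.8% were higher and 14.5% lower in WT. Of 26 other folding and degradation genes, 10 (38.5%) were higher and 1 (3.85%) lower in KO, and 9 (34.6%) were higher and 2 (7.69%) lower in WT. A difference of these lists from all genes was not tested. The 4 with the smallest p in WT were Mzb1, a BiP cofactor of plasma cells, the degradation factor Ubxn4 (1.18 in KO and 1.68 in WT), the disulfide isomerase Txndc5 (1.27 in KO and 1.69 in WT) and the cargo receptor Lman1 (1.09 in KO and 1.22 in WT). Mzb1 had 103, 105 and 94.2 CPM in pDC KO and 65.0, 97.0 and 49.1 CPM in pDC WT libraries, against 0 to 1.31 CPM in the 9 conventional libraries. Since Mzb1 had 0 counts in all 3 cDC2 KO libraries, no fitted difference is given for it. Of 21 other entry and glycosylation genes, 7 (33.3%) were higher and 0 lower in KO, and 8 (38.1%) were higher and 1 (4.76%) lower in WT. They were led in WT by the mannosyltransferase Alg2 (1.14 in KO and 1.67 in WT), the translocon partner Tram1 (1.43 in KO and 1.00 in WT), Srp19 (0.57 in KO and 1.13 in WT) and Magt1 (0.43 in KO and 0.80 in WT). The last pair were called in WT and not in KO.

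Of 15 other UPR regulators, 7 (46.7%) were higher and 3 (20%) lower in KO, and 7 (46.7%) were higher and 2 (13.3%) lower in WT. The shares over all tested genes were 13.3% higher and 16.5% lower in KO, and 14.8% higher and 14.5% lower in WT. Creb3l2, an ATF6-like factor (2.71 in KO and 2.02 in WT), Bhlha15, the secretory cell factor MIST1, and the ER calcium channel Itpr1 (0.75 in KO and 1.24 in WT) were higher, and Atf3, a stress-induced factor (-3.55 in KO and -3.25 in WT), was lower. Bhlha15 had 11.5, 16.4 and 10.9 CPM in pDC KO and 7.55, 9.16 and 8.16 CPM in pDC WT libraries, against 0 to 1.36 CPM in the conventional libraries, and no fitted difference is given since both cDC1 WT libraries had 0 counts.

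Of 14 tested amino acid supply and stress genes that ATF4 is known to activate, 1 (7.14%) was higher and 4 (28.6%) lower in pDC in KO, where 13.3% of all tested genes were higher and 16.5% lower. In WT, 1 (7.14%) was higher and 3 (21.4%) lower, where 14.8% of all tested genes were higher and 14.5% lower. A difference from all genes was not tested. The list had medians of -0.88 in KO and -0.84 in WT. Putting the genes at 0 in pDC at their bounds could not move these medians, since the bounds lay below them. Trib3, an ATF4-induced pseudokinase, had 0 counts in all 6 pDC libraries. Against the conventional mean it was at least 7.94-fold lower in pDC in KO and at least 22.3-fold lower in WT, by a floor of 3 counts over the group. Neither bound holds against each library. Trib3 had 0.999, 0.798 and 0.436 CPM in cDC2 KO and 1.05 and 2.33 CPM in cDC1 KO libraries. In WT it had 2.43 and 6.78 CPM in cDC2 WT and 1.64 and 0.182 CPM in cDC1 WT libraries. The floor was 0.153 CPM in KO and 0.124 CPM in WT. Asns, asparagine synthetase, had 0 counts in pDC KO and was at least 20.6-fold below the conventional mean there. The conventional KO levels of Asns were 0.713, 1.52 and 1.02 CPM in cDC2 and 7.98 and 2.48 CPM in cDC1 libraries. In WT it had 0.521, 0.258 and 0 CPM in pDC, against 2.19 and 9.64 CPM in cDC2 and 7.04 and 2.37 CPM in cDC1 libraries. The transfer RNA ligase gene Eprs was lower in both (-0.99 in KO and -0.90 in WT), and Phgdh was higher in WT (1.05). Of 22 vesicle coat genes, 1 (4.55%) was higher and 0 lower in KO, and 1 (4.55%) was higher and 2 (9.09%) lower in WT. The coat subunit Sec24d was higher in pDC in both (1.90 ± 0.23 in KO and 2.58 ± 0.25 in WT), and Copg2 (-1.61) and Tfg (-0.70) were lower in WT.

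The second comparison asked what loss of LKB1 did to these genes. By edgeR's quasi-likelihood test, 0 of 49 members were called in pDC, cDC2, cDC1 or their average, where 0.0681%, 0.119%, 0.0255% and 0.306% of all tested genes were called. At an unadjusted p under 0.05 there were 5 members in pDC, 5 in cDC2, 3 in cDC1 and 3 in the average, beside 10.6%, 13.3%, 3.83% and 10.2% of all tested genes. DESeq2 called 1 member, Sec63, in pDC and 0 in cDC2, cDC1 and the average. The shares of all tested genes given here are those of edgeR, so they are no background for the DESeq2 calls. The member medians were 0.06 in pDC, 0.25 in cDC2, 0.06 in cDC1 and 0.10 in the average, beside 0.00, 0.09, 0.00 and 0.05 over all tested genes, and with the length and GC offsets those of cDC2 and of the average turned to -0.16 and -0.01. A p above the threshold does not show that KO and WT levels were alike.

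**Figure D3:**
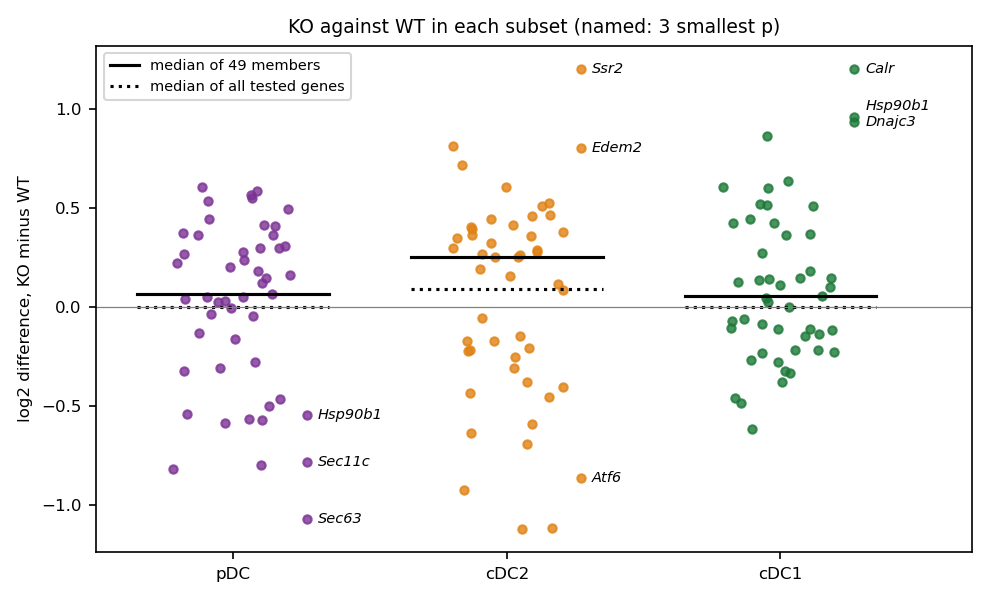
Each point is 1 of the 49 tested members, with the log2 difference of KO minus WT on the y axis and the subset on the x axis; solid lines are member medians, dotted lines medians over all tested genes, and the 3 members with the smallest p are named. The points lie on both sides of 0 in each subset, and none had an adjusted p under 0.05.

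In pDC, the smallest p was that of the channel partner Sec63. It had 132, 92.9 and 159.7 CPM in pDC KO, against 340.3, 211 and 257 CPM in pDC WT libraries. The groups did not overlap, as in 5.58% of all tested genes in that direction, and the difference was -1.07 ± 0.28 (adjusted p 0.211 by edgeR, and -1.06 with an adjusted p of 0.0298 by DESeq2). Hsp90b1 (-0.54 ± 0.23, adjusted p 0.429) and Sec11c (-0.78 ± 0.34, adjusted p 0.436) came next. Xbp1 differed by 0.37 ± 0.26, Ern1 by -0.50 ± 0.33 and Hspa5 by -0.01 ± 0.60 between KO and WT pDC (adjusted p 0.67, 0.631 and 1.0).

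In cDC2, Ssr2 had 38.1, 39.1 and 34.4 CPM in KO, against 17.0 and 15.4 CPM in WT libraries, which did not overlap, as in 23.1% of all tested genes in that direction. The difference was 1.20 ± 0.35 (adjusted p 0.154). Edem2 had 30.8, 25.7 and 32.1 CPM in cDC2 KO, against 17.2 and 16.6 CPM in cDC2 WT libraries (0.80 ± 0.29, adjusted p 0.255). Atf6 had 72.0, 148 and 117 CPM in cDC2 KO, against 158 and 251 CPM in cDC2 WT libraries (-0.87 ± 0.34, adjusted p 0.275). In neither of these genes did the groups overlap, which for lower levels in KO held for 11.7% of all tested genes, and neither passed.

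In cDC1, the 3 members with the smallest p were chaperones, all with higher levels in KO. Calr had 2380.4 and 3693 CPM in cDC1 KO, against 1431 and 1210.4 CPM in cDC1 WT libraries (1.20 ± 0.47, adjusted p 1.0). Hsp90b1 had 3804 and 3169.8 CPM in cDC1 KO, against 1821 and 1769.9 CPM in cDC1 WT libraries (0.96 ± 0.29, adjusted p 0.845). Dnajc3, an inhibitor of PERK, had 502 and 786 CPM in cDC1 KO, against 326 and 349 CPM in cDC1 WT libraries (0.93 ± 0.40, adjusted p 1.0). Groups of 2 libraries each did not overlap in these genes, as in 19.3% of all tested genes in that direction, and none of the 3 passed. Over the subsets on average, Ern1 gave -0.51 ± 0.22, Sec63 -0.41 ± 0.18 and Ssr2 0.45 ± 0.19 (adjusted p 0.428, 0.441 and 0.429).

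The genotype effect in pDC minus that in the conventional subsets tests whether the KO and WT comparisons of pDC differ. By edgeR 0 members and 0 of all tested genes were called, and by DESeq2 0 members, beside 20 higher and 30 lower over all genes. At an unadjusted p under 0.05 there were 6 members, beside 8.72% of all tested genes. The smallest p-values were those of Atf6, at 1.27 ± 0.40 (adjusted p 0.366), and Calr, at -1.52 ± 0.50 (adjusted p 0.397, and 0.03 without a filter on low counts). So the members called in 1 genotype and not in the other, Atf6, Hsp90b1 and Sec62 among them, were not shown to differ between genotypes.

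Some members varied widely between libraries of the same group. The median within-group SD was 0.34 on the log2 scale for the members and 0.51 for all tested genes, but Hspa5 stood at 0.92, Atf4 at 0.82 and Ddit3 at 0.77, and the low-count Derl3 at 0.96. The pDC KO libraries had 5854, 1704 and 812 CPM of Hspa5, a 7.21-fold range. With Hspa5 as the guide, a choice made after its values were seen, the library with the highest Hspa5 in each of the 6 groups was also the highest for 4 other members in all 6 groups, and so it was for 405 (3.45%) of the other tested genes. These members were Calr, Ddit3, Herpud1 and Derl1. In pDC KO, Calr had 3290.1, 1474 and 891 CPM and Herpud1, an ER stress-induced ubiquitin-like protein of the degradation complex, had 477, 237 and 244 CPM. Replicate 1 was the highest for both. The deepest library of a group was the one highest in Hspa5 in 2 of the 6 groups. Xbp1 and Ern1 were highest in that library in 3 and 4 of the 6 groups.

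**Figure D4:**
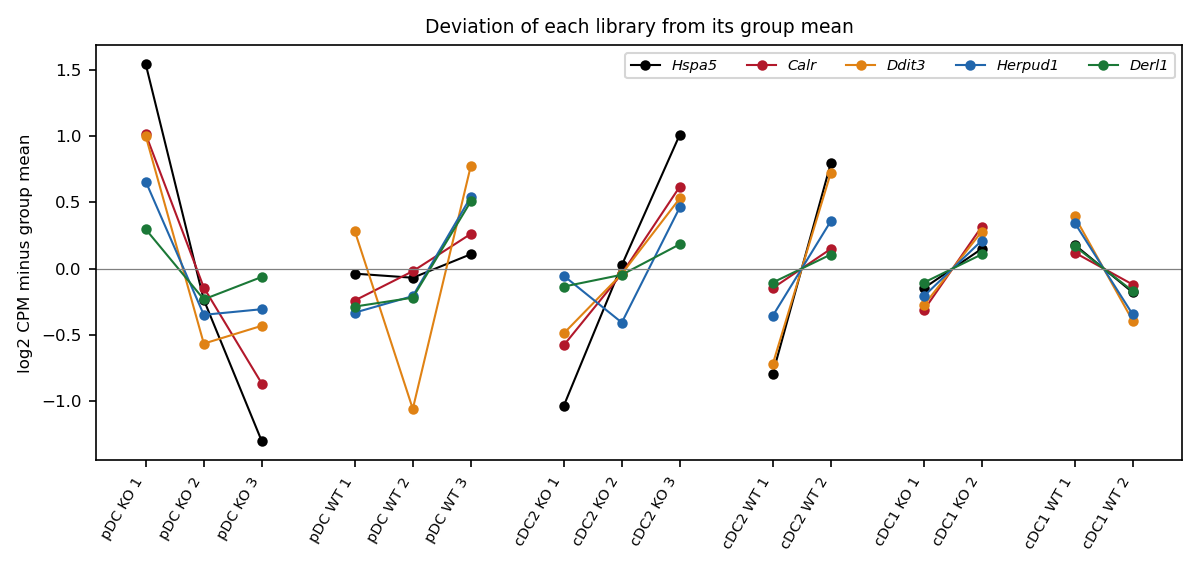
The y axis is log2 CPM minus the mean of the library's own group, for Hspa5 and the 4 members whose highest library was the same in all 6 groups; the x axis gives the 15 libraries, and lines join libraries of 1 group only to guide the eye. The 5 genes peak in the same library of every group, and the spread was widest for Hspa5 in pDC KO, with 5854, 1704 and 812 CPM.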

How the data were processed

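The deposited file held raw read counts per gene, whole numbers with no normalization by the authors, 1 column per library. STAR, HTSeq, DESeq2 and the build mm10 appear in the submitters' processing notes; which did what, in which version and with which strand setting, was not given in the sources used here. Libraries were 3′ tags from oligo-dT primers with 12 cycles of PCR, and no molecular identifier is described, per the labels' protocols, so PCR duplicates may be counted. Symbols came from GENCODE M21 (GRCm38), which gave 21745 of 22165 genes a symbol; 5860 genes had no count. Promoter sequences are those of RefSeq.

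Genes were kept by edgeR's filterByExpr (11746 genes; the rest held 0.0538% of counts), and libraries were scaled by TMM. A coefficient per group was fitted to all 15 libraries by robust quasi-likelihood in edgeR 4.0.16 (R 4.3.3). The common biological coefficient of variation was 0.395. The fit was also run on simulated counts in which every gene had this same variation, unlike the genes here. Its outcome is not reported here, and no result above rests on it. The conventional side is the mean of cDC2 and cDC1 with equal weight. P-values are two-sided and Benjamini-Hochberg adjusted over all tested genes for each of 10 contrasts, with a threshold of 0.05. Replicates of a group differed beyond counting error (chi-square per degree of freedom 28.1 to 103). Groups of 2 libraries rest on a spread pooled over groups.

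The members, gene lists and tests were chosen with earlier results of these data known. Named members were the 6 sensors and factors and Hspa5, up to 12 called in WT pDC by p in each direction, at least 2 of each role group, and the 3 with the smallest p in each KO contrast (2 for the difference of effects); further members were named where called in another contrast or to give every member, after their values were seen. Alternatives were DESeq2 1.42.0, RLE scaling, offsets for length and GC content, a block for replicate number, a fit restricted to the compared groups, filters at none or at 10 CPM, and leaving out each library.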

Additional observations from a re-analysis of the deposited data

How the results depend on the processing

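Xbp1, Ern1, Edem2 and Sec61a1 kept their calls in both genotypes in all 15 fits without 1 library and in the 7 other settings. The number of members called moved by over 1.5 times in these cases. DESeq2 gave 1 call for KO minus WT in pDC and 12 for cDC2 minus cDC1 in WT, and without a filter there was 1 call in the difference of genotype effects. With only the groups of the contrast there were 5 calls for pDC minus cDC2 and 0 for cDC2 minus cDC1. Leaving out 1 library, calls numbered 10 to 19 for pDC minus conventional subsets in KO, 7 to 17 for pDC minus cDC1, 8 to 19 for pDC minus cDC2 and 2 to 8 for cDC2 minus cDC1; the cause was not tested. Replicate numbers were treated as unpaired, since the labels do not say how they relate across groups. Of 33 same-numbered pairs of deviations, 6 correlated above 0.1 (r -0.182 to 0.179). In 18 matches among pDC KO, pDC WT and cDC2 KO, which use each library more than once, 3 were best with the same number. These values cannot settle the pairing, since deviations in a group of 2 libraries mirror each other and values repeat. With the replicate number as a block there were 16 calls in KO (Spcs3 lost) and 13 in WT (Eif2ak3 and Dnajb9 lost) for pDC minus conventional subsets, and 10 for pDC minus cDC1. The length and GC offsets moved the median of all genes from -0.09 to 0.14 for pDC minus conventional subsets in KO and from 0.09 to -0.11 for KO minus WT in cDC2. Derl3 had 0 to 32 counts per library and Srp54a 1 count in all, and no fold is given for them.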
